A study of Mus musculus with 25 samples.

Results

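The subunits of the mitochondrial respiratory chain and of its ATP synthase were followed through embryonic mesenchyme, the connective tissue around the epithelium of a developing gland. The members were taken by gene identity from a list of subunits, by a rule that uses no measured value, although the list was drawn up with earlier results of these data known, and all 54 listed genes were found among the 35880 genes of the table. They comprised 13 genes of the mitochondrial genome and 41 nuclear genes. RNA-Seq had been done on 25 pools of tissue from C57Bl/6JOlaHsd mouse embryos, with no transgene or treatment in any group. Ventral skin mesenchyme (VM), mammary mesenchyme (MM) and salivary gland mesenchyme (SM) were taken at E13.5, counted in embryonic days, and mammary mesenchyme and the fat pad precursor (FP) at E16.5, with 5 pools of each. Since VM and SM were sampled only at E13.5 and FP only at E16.5, they are written below without a stage. The E16.5 embryos were labelled female, and no sex was given for those of E13.5. Tissue was parted from epithelium after Dispase II and pancreatin-trypsin, and each pool held the mesenchyme of 2 to 3 embryos of a litter. The 5 pools of a tissue came from 3 litters, and the sources do not say which pools shared a litter, so the p-values measure the spread between pools.

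The chain moves electrons from NADH and succinate to oxygen through complexes I, II, III and IV, and complex V uses the proton gradient this builds to make ATP. Complexes I, III, IV and V are assembled from subunits of both genomes, whereas complex II, succinate dehydrogenase, is encoded by the nucleus alone. Mitochondrial genes are transcribed as long precursors from both strands of a small circular genome present in many copies per cell, while each nuclear gene has its own promoter. Tissues such as muscle are known for their large content of mitochondria. The members comprised 7 mitochondrial and 21 nuclear genes of complex I, 4 nuclear genes of complex II, 1 and 6 of complex III, and 3 and 10 of complex IV. For complex V they held the 2 mitochondrial genes and no nuclear gene. Ndufa4 was counted by its name with complex I, although its product is now placed in complex IV.

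Stretches of mitochondrial genes that also lie in the nuclear genome come first, since they decide where a read can be counted. On chromosome 1 the mouse nuclear genome carries a run of 7 annotated copies of mitochondrial genes, on the minus strand of chr1:24611535-24616197 in GRCm38 and 4663 bases long. The copy Gm28661 (chr1:24614885-24615565) had 0 mismatches to mt-Co2 (chrM:7013-7696) over 681 bases. The copy Gm28438 (chr1:24612775-24613119) had 1 mismatch to mt-Nd3 (chrM:9459-9806) over 345 bases, the substitution T3C counted from the first base of the mitochondrial gene. The first 41 bases of both pairs are shown 5′ to 3′ in lower case with the mismatched base in capitals, as transcript sequence of GENCODE M21, because a reader can see in them how little separates the members.
mt-Co2: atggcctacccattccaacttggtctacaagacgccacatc
Gm28661: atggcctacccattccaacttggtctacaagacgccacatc
mt-Nd3: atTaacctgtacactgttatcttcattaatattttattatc
Gm28438: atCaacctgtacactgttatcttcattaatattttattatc

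For the nuclear members, the promoters of the genes with the widest range of tissue means in complexes I, II and IV are shown, the widest in complex III, Uqcrq, having no entry in the table used. Each sequence is the 150 bases before the RefSeq start in GRCm38.p6, all on the minus strand: Ndufb8 at chr19:44555443-44555592, Sdhd at chr9:50603850-50603999 and Cox8a at chr19:7217617-7217766. Capitals mark matches to the motifs of nuclear respiratory factor 1 (GCGCANGCGC) and of the ETS family (CCGGAAG), both searched on both strands. Only matches wholly within the printed stretch are marked. Cox8a has ETS matches at -5 and 32 relative to the start, which run past its end or lie beyond it.
Ndufb8: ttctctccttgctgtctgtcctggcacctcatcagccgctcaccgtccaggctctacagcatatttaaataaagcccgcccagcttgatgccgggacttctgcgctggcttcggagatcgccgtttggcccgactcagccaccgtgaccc
Sdhd: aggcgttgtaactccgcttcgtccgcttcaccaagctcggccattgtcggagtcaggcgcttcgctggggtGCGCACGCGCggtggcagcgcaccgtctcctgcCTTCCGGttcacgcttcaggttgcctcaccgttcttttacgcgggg
Cox8a: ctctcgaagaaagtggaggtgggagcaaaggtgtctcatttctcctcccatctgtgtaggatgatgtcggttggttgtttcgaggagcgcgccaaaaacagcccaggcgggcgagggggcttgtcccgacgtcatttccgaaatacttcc
In windows from 250 bases before to 50 bases after the start, 31 of the 41 nuclear members matched an entry. The motif of nuclear respiratory factor 1 was present in 7 of them (22.6%) and in 5.19% of 27025 genes. The ETS motif was present in 8 (25.8%) and in 9.93% of all genes, and that of the estrogen-related receptors (AAGGTCA) in 1 (3.23%) and in 5.38%. Sdhd held all 3 motifs within its window, and the windows of Ndufa6, Ndufa5, Sdha and Uqcrc1 also held the first. The motifs do not contain each other, and a match describes letters in the window only.

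Total counts per library ran from 20678150 to 34448304 with a median of 26370369. A normalized count is a count scaled with TMM factors to the mean library. Differences were tested with edgeR's quasi-likelihood test over all 25 libraries on the 17657 genes that its expression filter kept, which included all 54 members. A member "passed" at a Benjamini-Hochberg adjusted p under 0.05. It was "called" if the log2 fold change also reached 0.58 in either direction and the higher tissue averaged over 50 normalized counts. Of the lists that mark other cells, 24 skeletal muscle genes summed to between 161.5 and 918.6 counts scaled to the library total (CPM) in the 15 libraries of E13.5, to between 962.4 and 4085 in E16.5 MM and to between 14520 and 24650 in 4 libraries of FP. The fifth FP library, replicate 5, had 2532. The sum of 12 mesenchyme markers was 15290 to 22080 CPM in the E13.5 libraries, 44420 to 50340 in E16.5 MM and 23760 to 29080 in FP. In bulk tissue, fewer cells of a type and less RNA per cell cannot be told apart.

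The mitochondrial genome took the larger share of counts in every library, and both genomes had their highest mean share in FP. The 13 mitochondrial members held 2.02% ± 0.239 (SD, n = 5) of the counts of VM, 2.19% ± 0.235 of those of E13.5 MM and 2.11% ± 0.203 of those of E16.5 MM. FP had 3.15% ± 0.632 and SM 1.904% ± 0.425. In the FP libraries 1 to 5 the share was 4.17%, 2.69%, 2.89%, 3.34% and 2.66%. The highest of the 20 other libraries had 2.40%, so the FP libraries stood above all others. The SM libraries, with 1.67%, 2.36%, 1.79%, 1.38% and 2.33%, overlapped those of the other E13.5 tissues.

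The 41 nuclear members together held 0.353% ± 0.0262 (SD, n = 5) in VM, 0.377% ± 0.0297 and 0.321% ± 0.0195 in MM of the earlier and later stage, 0.421% ± 0.0879 in FP and 0.293% ± 0.0385 in SM. Their share in the FP libraries 1 to 5 was 0.548%, 0.381%, 0.375%, 0.470% and 0.329%, so here the FP libraries overlapped the MM libraries of both stages. The FP library with the lowest nuclear share was replicate 5, that with the lowest sum of muscle genes, and the highest share of both genomes was in replicate 1. The ratio of the mitochondrial to the nuclear sum was 5.81 ± 1.16 (SD, n = 5) in VM, 5.85 ± 0.873 and 6.58 ± 0.366 in MM of the 2 stages, 7.52 ± 0.438 in FP and 6.47 ± 0.924 in SM. The ratio of FP ran from 7.06 to 8.09, and it overlapped the ranges of the other tissues, whose highest libraries had 7.79 in VM, 7.27 and 7.10 in MM, and 7.95 in SM. In the VM library with 7.79, replicate 1, 4 predicted genes rich in repeats (Gm10800, Gm10718, Gm10721 and Gm20594) took 10.01% of counts, against 1.07% to 6.21% in the other libraries.

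**Figure D1:**
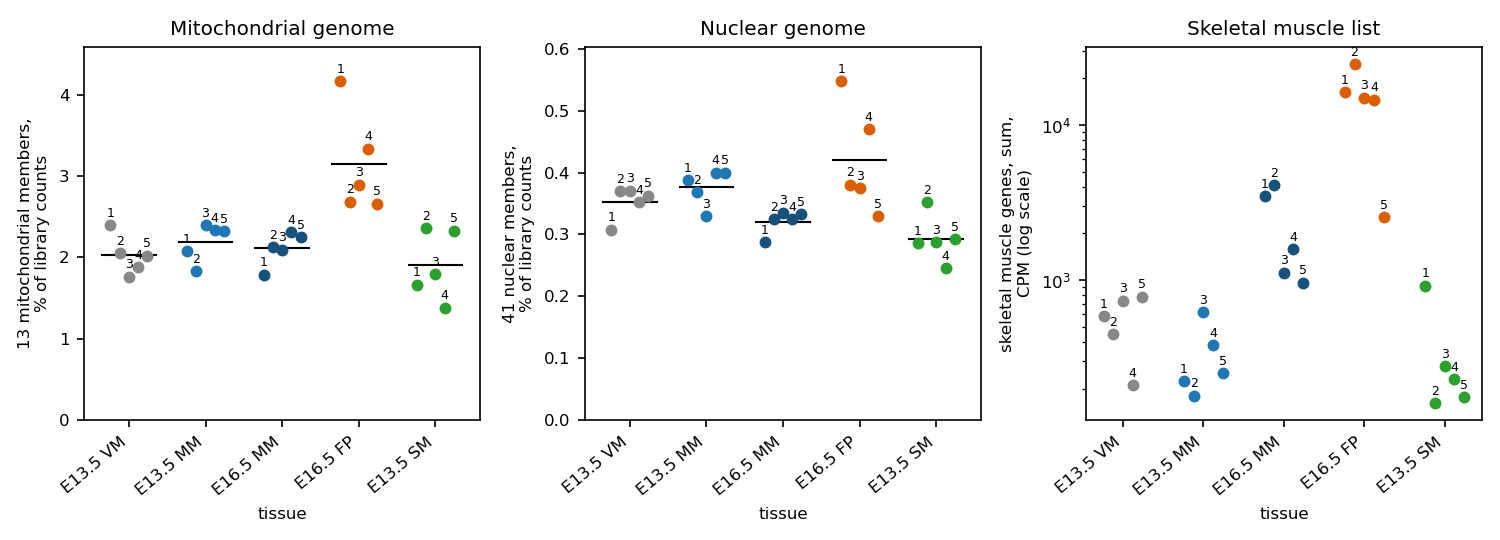
Share of library counts taken by the 13 mitochondrial members (left) and the 41 nuclear members (middle), and the sum of 24 skeletal muscle genes in CPM on a log axis (right), for each of 25 libraries by tissue. Points are libraries with their replicate numbers and bars, left and middle, are tissue means; the 5 FP libraries lie at 2.66% to 4.17% on the left and replicate 5 is the FP library with the lowest muscle sum, 2532.

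Read per kilobase of transcript and averaged over the 5 tissue means, the mitochondrial members ran from 2350 normalized counts in mt-Co2 to 140100 in mt-Co1, and the nuclear members from 185 in Uqcrq to 7761 in Cox7c. These deposited levels do not hold the reads given to nuclear copies, so the order of mt-Co2, mt-Co3, mt-Atp6 and mt-Nd3 is uncertain. With copies added, mt-Co3 stood above mt-Co1 in every tissue mean per kilobase, at 317700 against 210300 in FP. The lowest was then mt-Nd6, at 4058 in FP. mt-Co1, the catalytic core of cytochrome c oxidase, took between 33.4% and 37.0% of the deposited mitochondrial counts in the mean of each tissue. That total leaves out the reads given to the copies, most of those of mt-Co2 among them. In the test for any difference between the 5 tissues 45 of the 54 members passed, against 86.6% of all genes tested. The 9 that did not pass were mt-Nd3, mt-Co2, mt-Co3, mt-Atp6, Ndufa2, Ndufa4, Ndufb5, Ndufs3 and Sdhb. With the counts of the nuclear copies added to the mitochondrial genes, all 13 mitochondrial members passed. The widest range of tissue means was that of mt-Nd6, 4.82-fold, and the narrowest that of Ndufb5, a complex I accessory subunit, 1.17-fold. Among nuclear members that passed, the widest and narrowest log2 ranges were 0.995 in Ndufb8 and 0.33 in Ndufs4 for complex I, 1.14 in Sdhd and 0.64 in Sdha for complex II, 0.92 in Uqcrq and 0.73 in Uqcrc2 for complex III, and 1.24 in Cox8a and 0.44 in Cox4i1 for complex IV. FP had the highest mean for 12 of the 13 mitochondrial and 32 of the 41 nuclear members. SM had the lowest for 8 and 31.

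**Figure D2:**
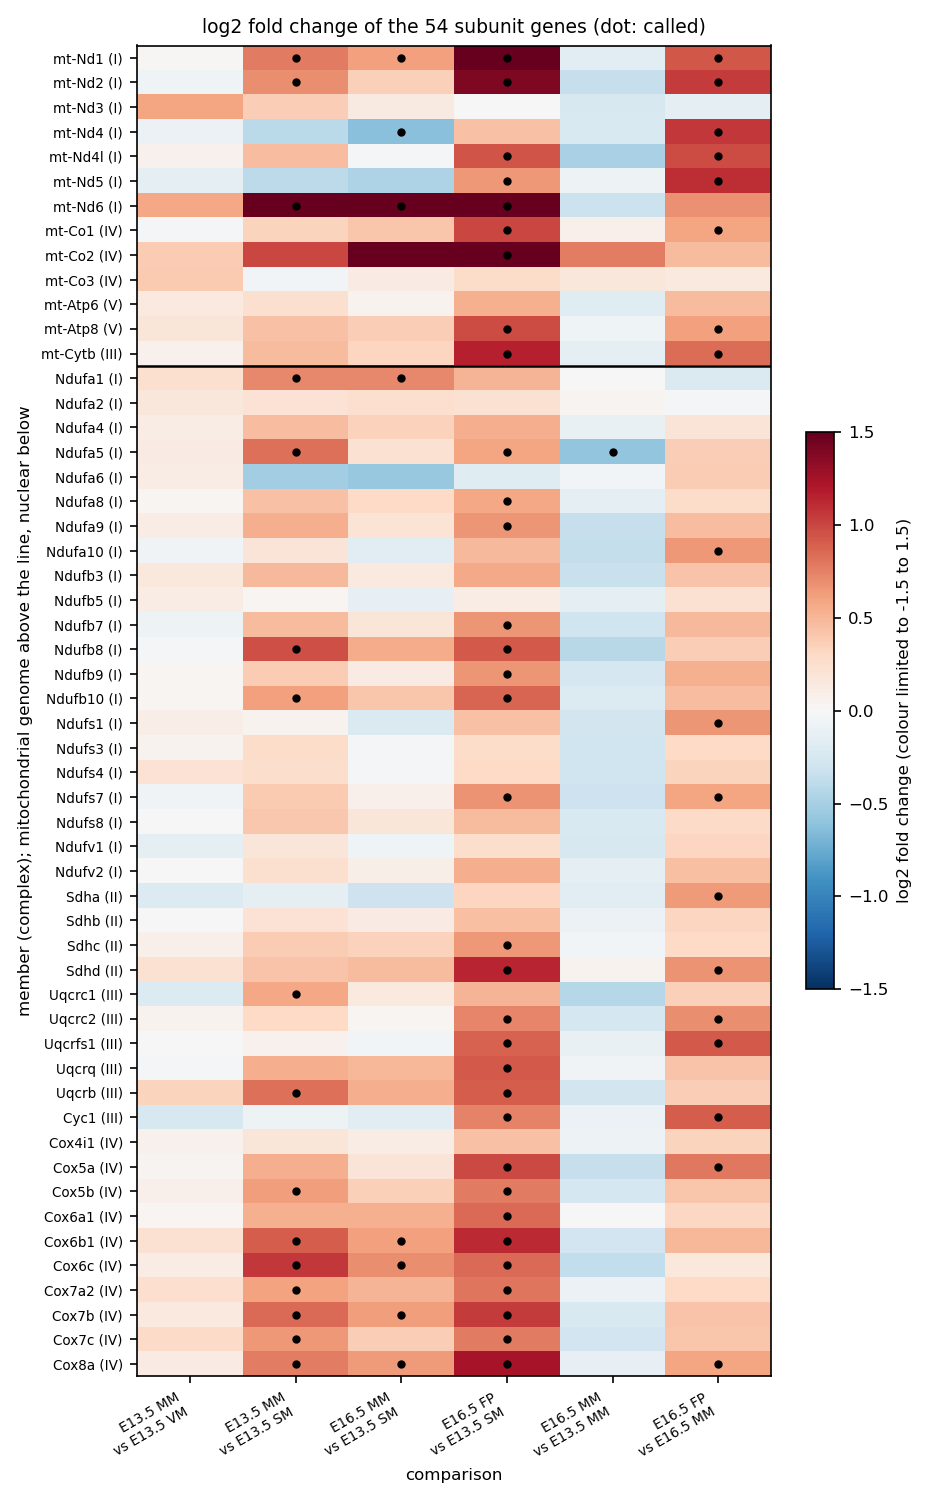
log2 fold change of each of the 54 members in the 6 comparisons, red for higher and blue for lower in the first-named tissue, with colours limited to -1.5 to 1.5 and a dot where the member was called. No dot stands in the column of E13.5 MM against VM, and dots are most frequent in the columns of FP, where 24 of 41 nuclear members have one against SM and 10 of 41 against E16.5 MM.

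E13.5 MM and VM, mammary mesenchyme and ventral skin mesenchyme taken away from the glands, did not differ detectably in these genes. None of the 54 members passed in either direction in edgeR, where 7.91% and 7.65% of all genes passed as higher and lower and 3.79% and 2.66% were called. The Wald test of DESeq2 called 0 as well. At an unadjusted p under 0.05, 1 mitochondrial member was higher, and 1 nuclear member was higher and 1 lower. The median log2 fold change was 0.07 over the mitochondrial and 0.06 over the nuclear members, beside -0.01 over all genes. The largest values were 0.59 in mt-Nd3 and 0.58 in mt-Nd6, neither of which passed.

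E13.5 MM had higher levels than SM of most nuclear subunits and of some mitochondrial ones. Of the 41 nuclear members 13 were called higher and 0 lower, against 14.5% and 15.6% of all genes, and 30 passed as higher and 1 as lower, against 30.3% and 30.8%. Of the 13 mitochondrial members 3 were called higher and 0 lower, and 7 passed as higher and 1 as lower. At an unadjusted p under 0.05, 2 mitochondrial and 1 nuclear member were lower. The median log2 fold change was 0.44 in both genomes and 0.03 over all genes, with 10 of 13 and 38 of 41 members above 0.

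Complex IV gave 7 of the 13 calls. Cox6c (chr15:35925886-35938246), a small structural subunit of cytochrome c oxidase, had 5980, 5799, 5063, 7091 and 6939 normalized counts in E13.5 MM libraries, against 2657, 3926, 2535, 2363 and 3291 in SM. The groups did not overlap, and Cox6c rose 2.09-fold in MM (log2 fold change 1.06 ± 0.15 SE, edgeR adjusted p = 8.61e-07). The gene overlaps Vps13b on the opposite strand by 250 bases, and whether strand was used in the counting is not stated. Cox6b1, which joins the dimer of the complex, and Cox7b rose by log2 fold changes of 0.91 and 0.85 with edgeR adjusted p of 1.27e-06 and 0.000164. Cox5b, Cox7a2, Cox7c and Cox8a were the other 4.

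In complex I, Ndufb8 (chr19:44548572-44555440), an accessory subunit of the membrane arm, had 2935, 2597, 2719, 2951 and 3030 normalized counts in E13.5 MM against 1395, 1913, 1443, 1109 and 1396 in SM. Every MM library lay above every SM library, with a log2 fold change of 0.97 ± 0.11 SE (edgeR adjusted p = 6.76e-08). Ndufa1, Ndufa5 and Ndufb10 were the other calls of the complex. Ndufa6 (chr15:82350140-82354322), another accessory subunit, was the member that passed as lower. It had 1466, 1146, 1023, 1338 and 1321 normalized counts in MM and 1684, 2241, 1743, 1576 and 1799 in SM, so that the groups again did not overlap (log2 fold change -0.52 ± 0.13 SE, edgeR adjusted p = 0.00121), and it missed the size for a call. In complex III, Uqcrb, a subunit at the ubiquinone site, rose by 0.83 on the log2 scale (edgeR adjusted p = 1.72e-05), and Uqcrc1, a core protein, was called too. None of the 4 subunits of complex II was called, and 2 passed as higher.

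The mitochondrial member with the largest difference was mt-Nd6 (chrM:13552-14070), a subunit of the membrane arm of complex I and the only member transcribed from the other strand of the mitochondrial genome. It had 1324, 1397, 1798, 1720 and 1904 normalized counts in E13.5 MM libraries, against 296.2, 579, 274.5, 589.5 and 445.5 in SM. The groups were far apart, and the log2 fold change was 1.898 ± 0.29 SE (edgeR adjusted p = 5.92e-06). mt-Nd6 overlaps mt-Nd5 by 14 bases on the opposite strand, and mt-Nd5 averaged 19380 normalized counts in E13.5 MM. mt-Nd1 and mt-Nd2, which come first along the other strand, were called higher with log2 fold changes of 0.78 and 0.70 (edgeR adjusted p = 0.00165 and 0.00393). mt-Nd4 and mt-Nd5, which lie further along, had -0.41 ± 0.19 and -0.39 ± 0.15 SE (edgeR adjusted p = 0.0681 and 0.0285). mt-Nd4l, which lies just before mt-Nd4, and mt-Cytb, which lies beyond mt-Nd5, had 0.46 and 0.47. The values thus did not fall steadily along the strand. As shares of the deposited mitochondrial counts, mt-Nd4 and mt-Nd5 held 6.34% ± 1.42 and 5.50% ± 1.19 in SM and 3.81% ± 0.642 and 3.34% ± 0.548 (SD, n = 5) in E13.5 MM, whereas mt-Nd6 held 0.0947% ± 0.0433 in SM and 0.280% ± 0.0261 in E13.5 MM. The total behind these shares leaves out the reads given to nuclear copies.

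**Figure D3:**
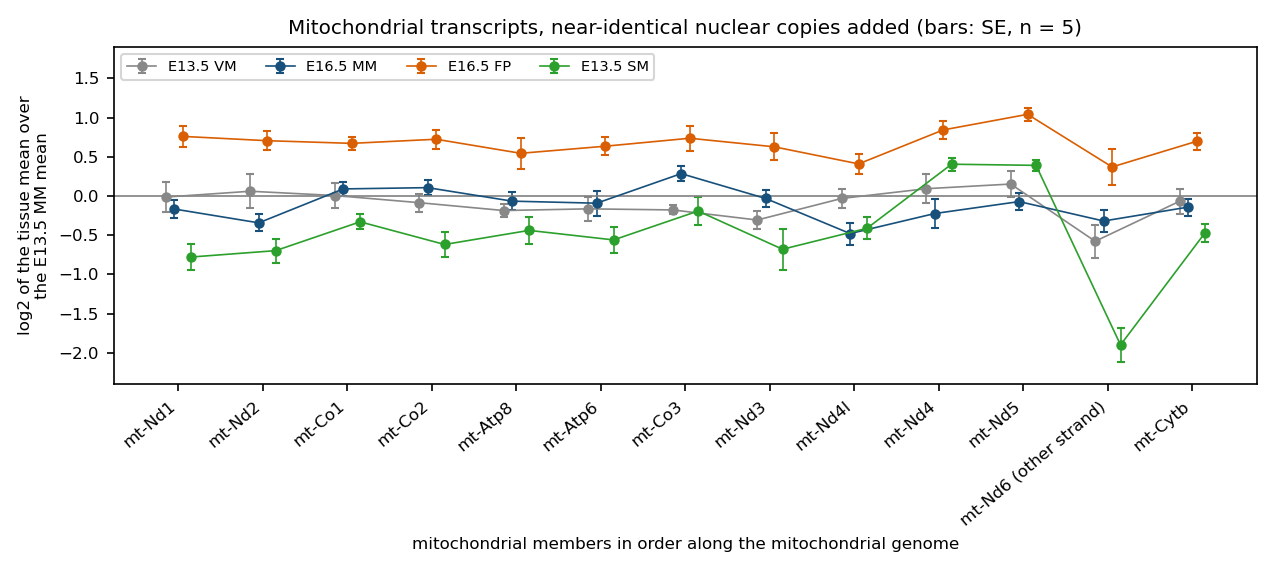
log2 of each tissue's mean normalized count over the E13.5 MM mean for the 13 mitochondrial members, in order along the mitochondrial genome, with the counts of near-identical nuclear copies added and bars for the SE (n = 5). SM lies above 0 for mt-Nd4 and mt-Nd5 and below 0 for the other members, lowest for mt-Nd6, and FP lies above 0 for all 13.

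Fold changes against SM moved with transcript length over all genes, and the members are short. In E13.5 MM against SM, the median log2 fold change fell from 0.36 in the shortest of 10 classes of genes by length to -0.29 in the longest. The shortest class, of 63 to 1120 bases, held 26 of the 41 nuclear and 9 of the 13 mitochondrial members. Set against the median of their own class, the nuclear members were higher by a median of 0.14 (31 of 41 above) and the mitochondrial members by 0.10 (9 of 13 above). After a correction of each library for its trend with length, 4 nuclear members were called higher (Cox6b1, Cox6c, Cox7b and Ndufb8) and Ndufa6 lower, against 14.6% and 14.1% of all genes. mt-Nd6 was then called higher and mt-Nd4 lower (log2 fold changes 1.55 and -0.59). Other lists also moved with SM: 21 of 22 proliferation genes were called higher in E13.5 MM, whose sums were 5144 to 5702 CPM against 2203 to 3243. Of 20 neuron genes 17 were called lower and 2 higher, with sums of 180.4 to 191.2 in MM against 600.2 to 720.2 in SM. All 12 leukocyte genes were called higher, with 372.5 to 436.2 CPM in MM and 83.08 to 120.3 in SM, as were 7 of 12 erythroid genes, with 1 lower, and 5 of 10 endothelium genes. Of 12 immediate early and heat shock genes, which respond to handling, 8 were called lower and 1 higher, and their sums overlapped, at 1240 to 1423 in MM and 1153 to 1549 in SM. Snhg11, the single gene measured of a list of RNAs kept in the nucleus, was called lower (log2 fold change -1.48). The part of these lists in the result was not tested.

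**Figure D4:**
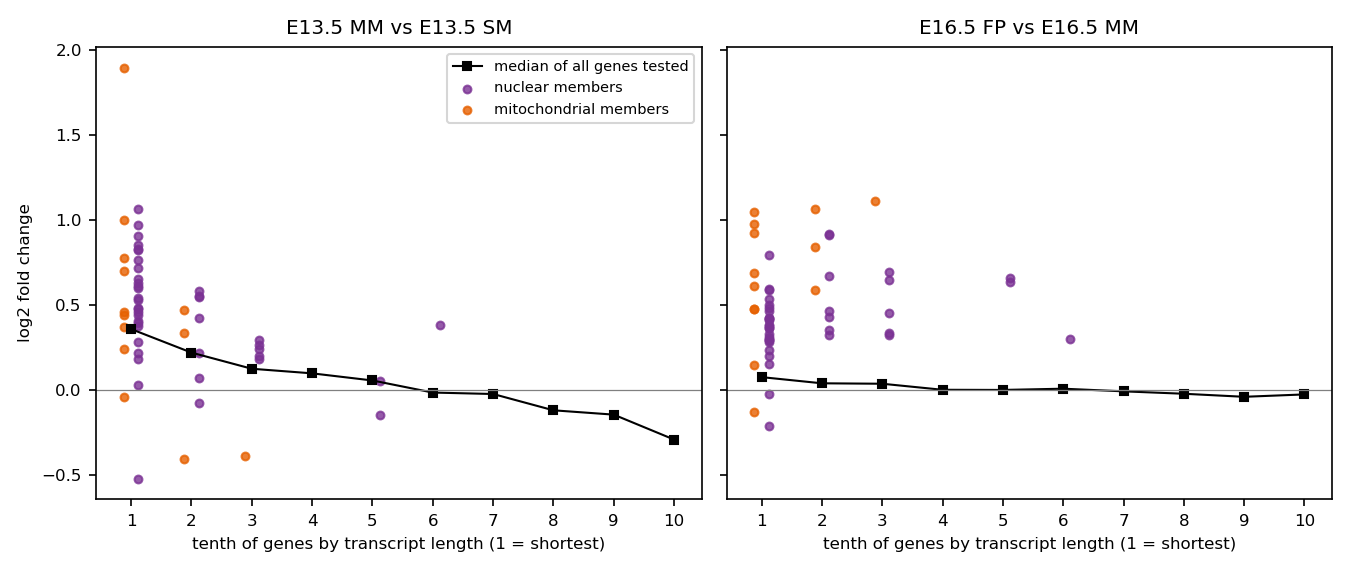
log2 fold change against class of transcript length (1 = shortest) for E13.5 MM against SM (left) and FP against E16.5 MM (right). Black squares are medians of all genes tested, which fall from 0.36 to -0.29 on the left and from 0.07 to -0.03 on the right, and coloured points are the nuclear and mitochondrial members.

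E16.5 MM and FP were set against the same SM libraries, which also differ from them in stage and in the sex given, and the effects of tissue, stage and sex cannot be told apart. For E16.5 MM, 5 of the 41 nuclear members were called higher and 0 lower, against 18.5% and 16.6% of all genes, and 15 passed as higher and 2 as lower, against 33.6% and 34.4%. Of the mitochondrial members 2 were called higher and 1 lower, and 3 and 2 passed. The calls were Ndufa1, Cox6c, Cox8a, Cox7b and Cox6b1, at log2 fold changes from 0.62 to 0.72, with mt-Nd6 at 1.58 and mt-Nd1 at 0.61, and mt-Nd4 at -0.63 ± 0.19 SE (edgeR adjusted p = 0.00556). Ndufa1 (chrX:37187588-37191163), a small membrane subunit of complex I, had 694.2, 970.2, 1064, 857.1 and 979.5 normalized counts at this stage of MM, against 452.3, 881.9, 527.8, 356.4 and 553.9 in SM, so its groups overlapped. Scaled by library totals alone, 2 nuclear members were called higher and 1, Ndufa6, lower, and 1 mitochondrial member each way. The median log2 fold change was 0.33 for the mitochondrial and 0.19 for the nuclear members, beside -0.01 for all genes. Of the 5 nuclear calls 0 were left after the length correction, in which Ndufa6 was called lower (log2 fold change -0.87, edgeR adjusted p = 2.28e-07), and the mitochondrial median turned to -0.10.

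For FP against SM the counts were 24 of 41 nuclear members called higher and 0 lower, beside 20.2% and 19.3% of all genes, and 37 and 0 passed, beside 36.8% and 34.9%. Of the mitochondrial members 9 were called higher and 11 passed, and 0 were called lower or passed as lower. No member was lower at an unadjusted p under 0.05, and DESeq2 likewise called 0 lower. The median log2 fold change was 0.98 in the mitochondrial and 0.66 in the nuclear members, beside 0.03 over all genes. By complex, 8 of 21 nuclear members of complex I, 2 of 4 of complex II, 5 of 6 of complex III and 9 of 10 of complex IV were called. Cox8a (chr19:7215153-7217616), a small subunit of complex IV, had 5586, 3084, 4407, 5246 and 3360 normalized counts in FP and 1556, 2698, 1806, 1272 and 1880 in SM, with no overlap (log2 fold change 1.24 ± 0.17 SE, edgeR adjusted p = 7.36e-07). Sdhd (chr9:50596357-50603812), a membrane anchor of succinate dehydrogenase, had 6880, 3863, 3618, 4987 and 3111 in FP and 1984, 2416, 1907, 1619 and 2248 in SM, again with no overlap (1.14 ± 0.16 SE, edgeR adjusted p = 1.06e-06). Cox6b1, Cox7b and Cox5a followed with log2 fold changes of 1.12, 1.05 and 0.99. mt-Nd6, mt-Nd1, mt-Nd2, mt-Cytb and mt-Co1 rose by 2.27, 1.54, 1.40, 1.17 and 1.005 on the same scale. The nuclear members stood a median of 0.37 above their length class and the mitochondrial members 0.57. After the length correction 9 of 41 nuclear and 6 of 13 mitochondrial members were called higher, against 19.7% of all genes. The nuclear number then lay near the share of all genes. Against the same SM libraries, 14 of 22 proliferation genes were called higher in MM of E16.5 and 18 in FP, and in both tissues all 12 leukocyte genes were called higher and 17 of 20 neuron genes lower. Of 23 muscle genes, 23 were called higher in FP and 16 in E16.5 MM, and of 13 adipocyte genes 12 and 6, with 0 lower. With replicate 5 as the sole FP library, the mitochondrial median against SM was 0.57 and the nuclear median 0.22. The part of these lists in both comparisons was not tested.

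Between the 2 stages of MM the nuclear subunits were, as a group of values, slightly lower at the later stage, and few differences were large. Of the 41 nuclear members 1 was called lower and 0 higher, against 7.16% and 12.6% of all genes. 11 passed as lower and 0 as higher, against 25.8% and 23.6%, so the number lower lies near the share of all genes. Of these 11, 9 belonged to complex I, which holds 21 of the 41 nuclear members. At an unadjusted p under 0.05, 17 nuclear members were lower and 0 higher. The call was Ndufa5 (chr6:24518666-24528013), an accessory subunit of the peripheral arm of complex I, with 1379, 1282, 1286, 1671 and 1557 normalized counts at E13.5 and 789.5, 939, 1001, 1011 and 1017 at E16.5. The stages did not overlap for Ndufa5 (log2 fold change -0.59 ± 0.15 SE, edgeR adjusted p = 0.00173). Its value lies just past the size for a call, and DESeq2 called 0 nuclear members. Of the mitochondrial members 0 were called by either tool, and 1 passed as lower. At an unadjusted p under 0.05, 1 was lower. The medians were -0.17 and -0.23 for the mitochondrial and nuclear members, beside 0.01 for all genes, and 4 of the 41 nuclear members were above 0. The nuclear members stood a median of 0.19 below their length class, where 4 of 41 were above it. Stage and sex cannot be told apart in this comparison. Other lists moved between these stages as well. Of 22 proliferation genes 7 were called lower at E16.5 and 21 passed as lower, with sums of 3534 to 4086 CPM against 5144 to 5702. Called higher at E16.5 were 12 of 12 leukocyte genes, 12 of 15 epithelium genes, 8 of 13 adipocyte genes, 7 of 12 mesenchyme markers and 15 of 23 muscle genes, the last with 1 lower. Of 12 immediate early and heat shock genes 8 were called higher and 1 lower. The part of these lists in the subunit levels was not tested.

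FP had higher levels than E16.5 MM of subunits of both genomes, in tissues of the same stage and sex. Of the 13 mitochondrial members 8 were called higher and 0 lower, against 6.78% and 7.34% of all genes, and the same 8 were those that passed, against 17.6% and 16.2%. Of the 41 nuclear members 10 were called higher and 0 lower, and 27 passed as higher and 0 as lower. No member was lower at an unadjusted p under 0.05, and DESeq2 called 8 mitochondrial and 8 nuclear members, each of them higher. The median log2 fold change was 0.69 in the mitochondrial and 0.41 in the nuclear members, beside 0.00 over all genes, with 12 of 13 and 39 of 41 above 0.

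mt-Nd5 (chrM:11742-13565), the proton-pumping subunit at the far end of complex I, had 47200, 42520, 37480, 37780 and 34470 normalized counts in FP and 15280, 18800, 15570, 19760 and 22860 in E16.5 MM. The groups did not overlap, and FP was 2.16-fold higher (log2 fold change 1.11 ± 0.15 SE, edgeR adjusted p = 2.67e-06). mt-Nd4, mt-Nd2, mt-Nd4l and mt-Nd1 rose by 1.07, 1.05, 0.98 and 0.93 on the log2 scale, mt-Cytb, the mitochondrial subunit of complex III, by 0.84, mt-Atp8 by 0.61 and mt-Co1 by 0.59. mt-Nd6, which differed most against SM, had 2348, 1071, 2339, 3029 and 1744 normalized counts in FP against 1473, 1427, 1287, 1520 and 821.3 in E16.5 MM, with overlap, and did not pass (log2 fold change 0.69 ± 0.28 SE, edgeR adjusted p = 0.0592).

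The nuclear calls included both redox subunits of complex III. Uqcrfs1 (chr13:30540308-30545362), the Rieske iron-sulfur protein, had 4498, 2481, 2015, 2908 and 1724 normalized counts in FP and 1357, 1549, 1498, 1425 and 1382 in E16.5 MM, without overlap (log2 fold change 0.92 ± 0.18 SE, edgeR adjusted p = 0.000214). Cyc1 (chr15:76343523-76346260), cytochrome c1, had 2672, 1938, 1282, 1727 and 981.4 against 813.5, 1001, 887.5, 824.7 and 1050 (0.91 ± 0.16 SE, edgeR adjusted p = 0.000104). For Cyc1 the lowest FP library, replicate 5, lay among the MM libraries. Cox5a, Uqcrc2, Sdhd, Ndufs1, Ndufa10, Sdha, Ndufs7 and Cox8a were called with log2 fold changes between 0.59 and 0.80. Ndufs1 and Ndufs7 carry iron-sulfur clusters of complex I, and Sdha is the catalytic subunit of complex II. Set against their length class the nuclear members were higher by a median of 0.34 (39 of 41 above). After the length correction 8 of the 10 calls were kept, all but Cox8a and Ndufs7, where 6.61% of all genes were called higher.

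The FP libraries differed among themselves in the sum of the muscle genes, and their shares of subunit counts did not keep its order. Replicate 2 had the highest sum, 24650 CPM, with 2.69% of its counts in the mitochondrial and 0.381% in the nuclear members. In replicate 5 the muscle sum of 2532 CPM lay within the range of E16.5 MM, 962.4 to 4085, while in the other 4 it was at least 14520. Of 23 muscle genes tested 21 were called higher in FP than in E16.5 MM, and none of the 24 was at 0 in any tissue. Replicate 5 was also fitted against E16.5 MM as the sole FP library, which gives no spread of its own. The nuclear median log2 fold change was then -0.03 with 18 of 41 above 0, and the mitochondrial median was 0.44 with 9 of 13 above 0. With the copies added, replicate 5 held 4.07% of its counts in the mitochondrial members against 2.70% to 3.65% in E16.5 MM. Without FP replicate 1, the library with the highest nuclear share, 2 nuclear members were called (Uqcrfs1 and Cyc1) and 6 mitochondrial members. Over all genes 2351 were then called in either direction, against 2494 with all FP libraries kept. Adipocyte genes moved with FP as well. Of 13 such genes 12 were called higher than in E16.5 MM. In the FP libraries 1 to 5 the sum of the 13 was 1888, 1125, 1420, 1681 and 1308 CPM, against 199.7 to 416.4 in E16.5 MM. Replicate 5 thus lay within the other FP libraries, 1125 to 1888. With copies added the mitochondrial share of these libraries was 5.35%, 3.65%, 4.54%, 5.08% and 4.07%, in the same order of size. As deposited it was 4.17%, 2.69%, 2.89%, 3.34% and 2.66%, where replicates 2 and 5 changed places, so the match held in only 1 of the readings. The nuclear share had another order. Adipoq, Cidec and Lep, markers of fat cells, were at 0 in every SM library. Mesenchyme markers moved the other way, with 9 of 12 called lower in FP and 0 higher, and replicate 5, at 26530 CPM, lay within the range of the other FP libraries. Of 15 epithelium genes 7 were called lower and 0 higher, and of 12 immediate early and heat shock genes 7 and 0. The part of these lists in the subunit levels was not tested beyond these values.

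How reads were divided between mitochondrial genes and their nuclear copies varied from library to library. Of the counts of mt-Co2 and Gm28661 together, the copy took 95.9% to 100%, with a median of 98.3% over the 25 libraries. For mt-Co3 and Gm28437 the copy took 14.1% to 83.4% (median 43.5%), for mt-Nd3 and Gm28438 0% to 85.1% (15.7%), and for mt-Atp6 and Gm10925 0% to 56.7% (22.6%). mt-Nd3, a small membrane subunit of complex I, had 48530, 21810, 8158, 18290 and 7523 normalized counts in the FP libraries as deposited. Its counts there with the copy added were 66310, 34280, 52270, 64710 and 42400. In E16.5 MM the same 2 readings of mt-Nd3 were 17260, 28300, 31450, 14620 and 22490, and 33340, 31720, 31450, 41970 and 26130. Its log2 fold change in FP against E16.5 MM was -0.13 as deposited and 0.65 with the copy added (edgeR adjusted p = 0.0204).

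With copies added, 10 mitochondrial members were called higher in FP than in E16.5 MM, where mt-Atp6, mt-Co2 and mt-Nd3 were new and mt-Co1 fell just short at 0.57. Against SM, 12 were then called in FP, 5 in E13.5 MM and 4 higher and 1 lower in E16.5 MM. mt-Co2 had log2 fold changes against SM of 0.62 in E13.5 MM, 0.74 in E16.5 MM and 1.35 in FP (edgeR adjusted p = 0.00107, 0.000167 and 2.96e-08). The mean mitochondrial share rose to 4.54% in FP and 2.34% in SM, and the ratio to the nuclear sum to 10.9 and 7.95. A counter that shares reads between identical sequences cannot say which genome they came from, so single values of mt-Co2, mt-Co3, mt-Atp6 and mt-Nd3 are uncertain.

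**Figure D5:**
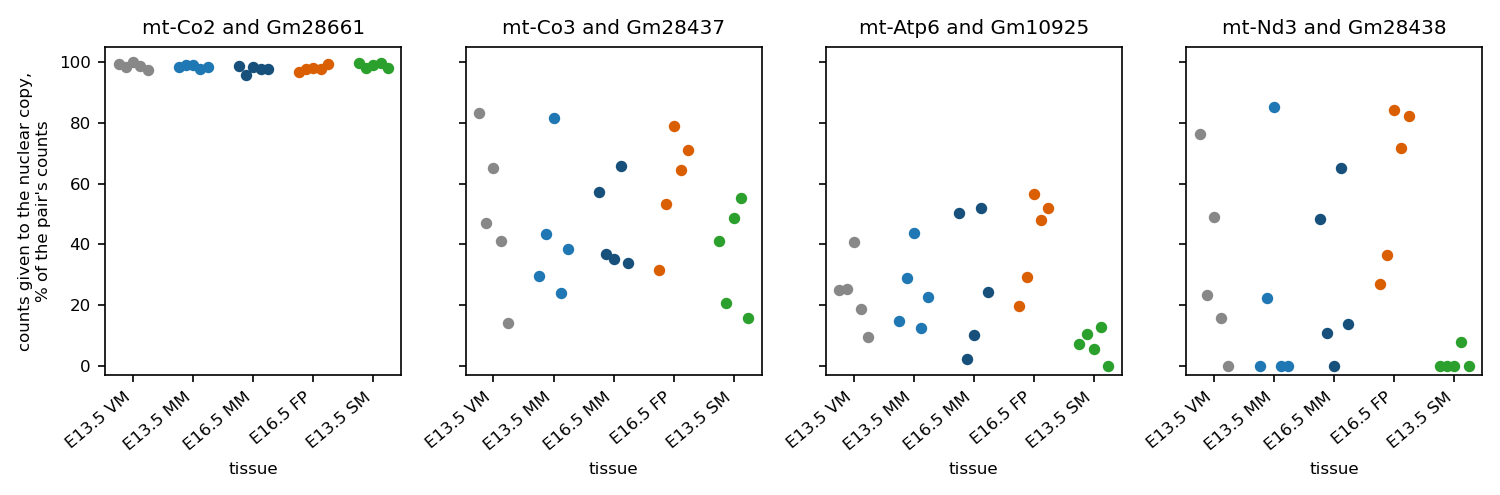
Percent of the counts of a mitochondrial gene and its near-identical nuclear copy that was given to the copy, for 4 pairs in each of 25 libraries by tissue. Points of mt-Co2 lie at 95.9% or more in every library, and those of mt-Co3, mt-Atp6 and mt-Nd3 are spread within tissues.

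Other genes of the same machinery were read from companion lists, whose calls stand beside the same shares of all genes. Against SM these were 14.5%, 18.5% and 20.2% called higher in E13.5 MM, in MM of the later stage and in FP, and in FP against E16.5 MM 6.78%. The 17 nuclear genes of complex V were read in the same comparisons: 9 were called higher and 0 lower in E13.5 MM than in SM, 4 and 0 for MM of E16.5, and 15 and 0 for FP. Atp5g2, of the proton-carrying ring, had a log2 fold change of 1.30 ± 0.16 SE in E13.5 MM against SM (edgeR adjusted p = 1.34e-07), and Atp5k and Atp5mpl had 1.07 and 1.06. In FP against E16.5 MM 0 of the 17 were called, although 8 passed as higher, and between the MM stages 0 were called and 5 passed as lower at E16.5. Of 21 further nuclear subunits of complexes I, III and IV, 10 were called higher in E13.5 MM, 5 in E16.5 MM and 11 in FP, each against SM and with 0 lower, and 1 in FP against E16.5 MM. In E16.5 MM against SM the 4 of 17 and the 5 of 21 lie near the share of all genes. Uqcr11 and Uqcr10 of complex III had 1.24 and 1.07 in FP against SM.

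Of 6 isoforms of complex IV and Ndufa4 that are typical of certain tissues, 3 were called higher and 1 lower in FP than in E16.5 MM. Cox6a2, Cox8b and Cox7a1, forms known from heart and skeletal muscle, had mean normalized counts of 369.4, 82.2 and 102.6 in FP and 49.9, 10.1 and 14.49 in E16.5 MM. Cox4i2, a form known from lung, fell by 1.21 on the log2 scale in FP (edgeR adjusted p = 0.00285) and rose by 2.74 between the MM stages. Ndufa4l2, a relative of Ndufa4 known to respond to low oxygen, rose between these stages from 7.30 to 390 normalized counts (log2 fold change 5.77 ± 0.31 SE, edgeR adjusted p = 2.99e-13). Cox6b2, known from testis, was the isoform called in E13.5 MM against VM, at -0.75.

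Around the chain, the mitochondrial ribosome, which translates the 13 mitochondrial messages, had 8 of 78 genes called and 48 passing as higher in FP against E16.5 MM. In E16.5 MM against E13.5 MM 1 of the 78 was called lower and 48 passed as lower, beside 7.16% and 25.8% of all genes. Mrpl12, a protein of its large subunit, had a log2 fold change of 1.13 in FP against E16.5 MM. Of 19 genes for processing and stability of mitochondrial RNA, 2 were called and 13 passed as higher in FP against E16.5 MM, among them Lrpprc, which keeps these messages stable, at 0.68. Of 18 genes for upkeep and transcription of mitochondrial DNA, 2 were called higher in that comparison, and 4 were called lower in E16.5 MM than in SM, where 16.6% of all genes were. Of 18 regulators of mitochondrial biogenesis, 7 were called higher in FP than in E16.5 MM, and 8 higher and 1 lower in FP than in SM. Perm1, Ppargc1b and Esrrg, all coactivators or receptors that act on respiratory genes, had mean normalized counts of 110.6, 250.2 and 127.6 in FP and 4.33, 34.6 and 21.8 in SM. Of 43 assembly factors 4 were called higher and 1 lower in E13.5 MM against SM, a smaller share than the 14.5% and 15.6% of all genes, and 4 and 1 in FP against E16.5 MM, beside 6.78% and 7.34%.

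Pathways that feed the chain differed between FP and E16.5 MM as well. Of 22 genes of the tricarboxylic acid cycle 14 were called higher in FP and 0 lower, with Pcx, which makes oxaloacetate, at a log2 fold change of 1.91 and Idh3a at 1.53. Of 20 glycolysis genes 11 were called higher and 0 lower, and of 20 genes for electron carriers and coupling 7 and 0, with Coq8a, of ubiquinone synthesis, at 2.14. For comparison, 0 of 78 genes of the cytosolic ribosome were called higher and 1 lower in FP against E16.5 MM, whereas 24 were called higher and 0 lower in E13.5 MM against SM. In E13.5 MM against VM 3 glycolysis genes were called lower and 0 higher, and each of the other machinery and pathway lists had at most 1 call. Of the other lists, 3 of 20 neuron genes were called higher there and 2 lower, and 2 of 12 mesenchyme markers higher and 1 lower. For 12 immediate early and heat shock genes the calls were 2 higher and 0 lower, and for 13 adipocyte genes 1 each way.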

How the data were processed

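The authors deposited 1 table of estimated counts per gene, in whole numbers, from Salmon 0.99.0 on mm10, after FastQC 0.11.8, MultiQC 1.9, Trimmomatic 0.39 and SortMeRNA. Libraries came from total RNA with the Ovation SoLo kit. The annotation release and the use of strand are not stated. Salmon divides reads between like sequences. The member rule uses gene identity alone, but members and lists were chosen with earlier results of these data known. Genes were named by rule: all mitochondrial members, up to 5 called nuclear members with the largest change per comparison, the widest and narrowest per complex, copies found by sequence and up to 3 genes per list. Others named in lists of calls, and Ndufa6, were chosen after their values were seen.

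Counts were tested with edgeR 4.0.16 in R 4.3.3 (TMM, robust quasi-likelihood, 1 mean per tissue, no covariate), which was tested on simulated data. SE is the log2 fold change over the square root of F. Copies were found with blastn 2.17.0+ (95% identity over at least 200 bases), symbols and lengths taken from GENCODE M21, and length trends removed by lowess (span 0.3). Alternatives used DESeq2 1.42.0 and other settings given at the end. Tables were made with pandas 2.3.3 and figures with matplotlib 3.10.9.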

Additional observations from a re-analysis of the deposited data

Results flagged for a closer look

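Of 285 groups of 5 libraries tested for 1 value far from the other 4 with Dixon's ratio, 21 stood out, where chance alone gives about 1 in 20, or 14. VM replicate 1, the library with the highest share of predicted repeat-rich genes, held 6. Its ratio of the mitochondrial to the nuclear sum was 7.794 (the other VM libraries 4.757 to 5.579). In normalized counts it was high for mt-Nd1 at 99110 (51060 to 63970), mt-Nd2 at 45640 (22060 to 26640), mt-Co1 at 281900 (161400 to 190300) and mt-Atp8 at 9441 (6951 to 7635), and low for Ndufa2 at 777.2 (1175 to 1261).

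E13.5 MM replicate 3 was low for Ndufa9 at 1659 (2228 to 2359), Ndufs3 at 1356 (1902 to 2116), Ndufv1 at 1786 (2270 to 2427) and Sdhc at 1673 (2243 to 2464). SM replicate 2 was high for Ndufb9 at 2223 (1451 to 1636), Ndufs8 at 1088 (775.6 to 828), Uqcrq at 313.5 (139.6 to 181) and Cox6a1 at 2113 (1399 to 1601). In E16.5 MM, replicate 4 was high for mt-Nd1 at 77830 (52580 to 54930) and mt-Cytb at 63820 (43570 to 47090). Replicate 3 of the same tissue was high for Ndufb3 at 1189 (923.1 to 960.4) and Ndufs3 at 1719 (1415 to 1483). Its replicate 1 had the low nuclear share, 0.2869% (0.3249% to 0.3349%). FP replicate 1 was high for mt-Co3, 235100 as deposited (46800 to 98000), a gene whose counts are divided with a nuclear copy, and VM replicate 2 was high for Ndufs4 at 2414 (1774 to 1957).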

How the results depend on the processing

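Calls are given as mitochondrial then nuclear. With no fold threshold, 8 and 31 members were called in E13.5 MM against SM, 5 and 17 in E16.5 MM against SM, 37 nuclear in FP against SM, 1 and 11 between the MM stages and 27 nuclear in FP against E16.5 MM. After the length correction the nuclear calls were 5, 1 and 9 in E13.5 MM, E16.5 MM and FP against SM and 0 between the MM stages. The mitochondrial medians in the 3 comparisons against SM were then 0.045, -0.096 and 0.53, and the nuclear medians of the first 2 were 0.18 and 0.013. Of all genes 14.6%, 18.7% and 19.7% were called higher in these 3 after the correction, and 14.1%, 14.7% and 17.8% lower. With copies added, 5 mitochondrial members were called in E13.5 MM and 5 in E16.5 MM against SM, and mt-Nd3 had 0.65 in FP against E16.5 MM. The mitochondrial shares were then 2.70%, 2.90%, 2.93%, 4.54% and 2.34% in VM, E13.5 MM, E16.5 MM, FP and SM, and the ratios to the nuclear sum 7.75, 7.78, 9.16, 10.93 and 7.95.

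In E16.5 MM against SM, nuclear calls were 8 with DESeq2 and with its size factors in edgeR, 3 with library totals alone and 9 when only the 2 tissues were fitted. Between the MM stages DESeq2, its size factors and the fit of 2 tissues gave 0. With FP replicate 5 alone the mitochondrial and nuclear medians against SM were 0.57 and 0.22, with Cyc1 at -0.12. Against E16.5 MM the nuclear median was -0.029, with Cox5a at -0.029. Other alternatives left the counts of calls within 1.5 times.

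Leaving out each library in turn, mitochondrial and nuclear calls ran from 2 to 3 and 9 to 18 in E13.5 MM against SM, from 2 to 4 and 3 (without SM replicate 4) to 10 (without SM replicate 2) in E16.5 MM, and from 7 to 10 and 16 to 28 in FP. They ran from 6 to 9 and 2 (without FP replicate 1) to 12 in FP against E16.5 MM. Between the MM stages the nuclear calls ran from 0 to 1, with 0 without E13.5 MM replicate 4 or 5 or E16.5 MM replicate 1, and in E13.5 MM against VM they stayed at 0. The test over 5 tissues passed 44 to 48 members.

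Library totals alone moved the median member by -0.129 in FP against SM, which leaves that median well above 0. The shared replicate numbers did not pair the tissues (median correlation of deviations 0.00615 over 50 pairs, 3 of 25 libraries closest to their own number). With the replicate block FP against E16.5 MM had 9 nuclear calls and no other count of calls changed.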
